A study of Mus musculus with 34 samples.

Results

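Mouse liver tumours induced with the skip2 isoform of beta-catenin were compared with tumours induced with dN90-beta-catenin. The comparison used 2 skip2 induced and 4 dN90 induced libraries, chosen by their source label, of 34 samples in the series and 18 libraries in the table of normalized counts. The other 12 libraries of that table were 5 skip1 induced samples, 2 wild type livers, and livers with only the skip1 (3) or the skip2 isoform (2). They entered the estimate of the spread and served as reference levels. Per the labels' protocols, cancer was modelled by hydrodynamic injection, in which a large volume given quickly into the tail vein carries plasmids mainly into hepatocytes, and total RNA came from frozen liver tumours. The labels give no strain, sex, age, dose or time, do not say whether a second oncogene was delivered with either form of beta-catenin, and do not say which exon each skip isoform lacks. For both skip2 induced samples the source label reads skip 2 while a second label field reads skip 1, and the source label was followed. The labels do not state that each library is from an animal of its own, and the spread behind the p-values may be technical.

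Beta-catenin joins cadherins at cell junctions and carries the canonical Wnt signal to the nucleus, where it acts with TCF and LEF factors. Without Wnt, a destruction complex phosphorylates serines and a threonine near its N terminus, and the protein is degraded. Forms that lack these residues are stable and are known drivers of liver tumours. In normal liver the pathway maintains pericentral genes such as Glul, the glutamine synthetase gene, and restrains genes of periportal hepatocytes.

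The name dN90 denotes beta-catenin without its first 90 residues. The reference codons for that stretch of Ctnnb1, the beta-catenin gene, are printed here because they are what the name says is missing, and because the destruction signal lies among them. They were read 5′ to 3′ from a GENCODE transcript on GRCm38 (mm10), plus strand, and cover chr9:120950221-120950233 in exon 2, chr9:120950522-120950749 in exon 3 and chr9:120950894-120950922 in exon 4. Capitals mark codons 32 to 45, which encode the phosphorylated residues and lie wholly in exon 3.
Ctnnb1 codons 1 to 90: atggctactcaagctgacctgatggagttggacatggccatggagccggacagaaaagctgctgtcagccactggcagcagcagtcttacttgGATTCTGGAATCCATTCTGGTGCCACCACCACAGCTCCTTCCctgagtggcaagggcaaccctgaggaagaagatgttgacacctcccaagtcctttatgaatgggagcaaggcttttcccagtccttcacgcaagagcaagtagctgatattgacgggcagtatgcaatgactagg

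The upstream sequences of 3 genes are shown because they were called higher in skip2 tumours whichever of the 6 libraries was left out. They are Hsd17b6, C8a and Mug2. Hsd17b6 is a hydroxysteroid dehydrogenase gene, and C8a encodes a chain of the membrane attack complex of complement. Mug2 is a protease inhibitor gene of the alpha-macroglobulin family. Mup20 met the same rule, but the promoter source used held no sequence for it. The sequences are RefSeq promoters on GRCm38.p6, 5′ to 3′ on the strand of the gene, and end before the transcript annotated by GENCODE. Hsd17b6 lies on the minus strand (chr10:128007612-128007861), as does C8a (chr4:104876399-104876648), and Mug2 lies on the plus strand (chr6:122006548-122006760). Capitals mark a match on either strand to 1 of 5 motifs searched, namely TATAAA of core promoters, GTTAAT from sites of the hepatocyte factor HNF1, CAAAGTCCA from those of the hepatocyte factor HNF4, CTTTGAT from those of TCF and LEF factors and GGAATG from those of TEAD factors.
Hsd17b6: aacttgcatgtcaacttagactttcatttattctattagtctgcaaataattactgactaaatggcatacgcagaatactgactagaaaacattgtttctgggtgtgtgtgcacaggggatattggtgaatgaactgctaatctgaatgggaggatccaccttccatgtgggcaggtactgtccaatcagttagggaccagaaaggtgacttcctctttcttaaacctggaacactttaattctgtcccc
C8a: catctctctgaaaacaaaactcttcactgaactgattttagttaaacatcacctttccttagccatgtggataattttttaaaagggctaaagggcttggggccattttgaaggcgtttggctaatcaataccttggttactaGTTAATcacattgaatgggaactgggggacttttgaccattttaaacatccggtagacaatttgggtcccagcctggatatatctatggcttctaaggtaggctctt
Mug2: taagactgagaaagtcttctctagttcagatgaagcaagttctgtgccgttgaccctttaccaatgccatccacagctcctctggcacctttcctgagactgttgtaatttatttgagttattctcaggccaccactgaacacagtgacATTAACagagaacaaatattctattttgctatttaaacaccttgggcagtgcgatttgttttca

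C8a and Mug2 each held 1 match, to the HNF1 motif, beginning 107 and 101 bases before the RefSeq start. No matches overlapped in these windows, and Hsd17b6 held none. Over the 250 bases upstream of the start, the HNF1 motif was found in 6 of the 32 promoters matched among the 38 genes called higher. It was in 4.49% of the 5185 promoters matched among all 6592 genes tested. The core promoter motif was in 7 of these 32 and in 6.56% of all, the HNF4 motif in 2 and 0.405%, the TEAD motif in 8 and 10.4%, and the TCF and LEF motif in 2 and 2.41%. The median number of CpG in the window was 3 for the genes called higher, 15 for the 123 matched genes called lower and 17 for all. A match is a string of letters in a window and says nothing of a factor's binding.

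Estimated depth was 933146 and 815419 reads in the skip2 libraries, and 574899, 428610, 361772 and 440463 in dN90 replicates 1 to 4. Both skip2 libraries were thus deeper than all others, which held 361772 to 734822, and depth and group cannot be told apart here. Skip2 replicate 1 also stood apart in its RNA. On the second principal component of all tested genes it lay at 41.0, against -20.8 to 17.1 in the other 17 libraries. Genes of antisense biotype held 0.907% of its normalized counts, against 1.76% in skip2 replicate 2 and 1.71% to 2.65% in the dN90 libraries. Without this library all 38 genes called higher and all 162 called lower kept their direction, with medians of 1.62 and -0.83, but limma called 5 genes higher and 2 lower. The call of each other gene named as called was lost then, and for the main ones the values without the library are given too.

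**Figure D1:**
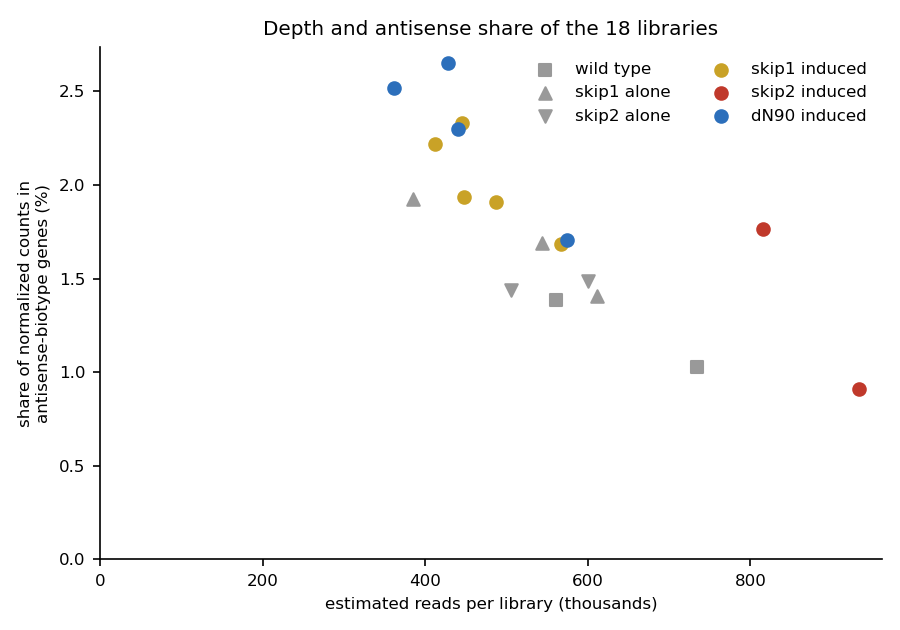
Estimated reads per library (horizontal axis) against the share of normalized counts in 315 antisense-biotype genes (vertical axis, percent), 1 point per library, with symbols for the 6 groups. The 2 skip2 induced libraries lie farthest right, and replicate 1 has the lowest share of the 18, 0.907%.

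At a limma adjusted p under 0.05, 200 of 6592 genes (3.03%) differed between skip2 and dN90 tumours, 38 higher (0.576%) and 162 lower (2.46%) in skip2. All 38 genes called higher encode proteins, as do 96.9% of all tested genes with annotation. Among the genes called lower that have annotation this share was 81.8%, and the rest were antisense and other non-coding transcripts. Of the 162 genes called lower, 140 were lower in skip2 replicate 1 than in any other library. Over all 6592 genes replicate 1 was lowest for 594, ties included. Groups that did not overlap were found for 727 genes higher in skip2 (11%) and 699 lower (10.6%). An exact permutation test of 2 against 4 libraries cannot go below a p of 1 in 15, so calls rest on the spread shared over all 18 libraries. When the fit held only these 6 libraries, limma called 4 genes higher and 3 lower, against 845 at an unadjusted p under 0.05, a count that was 852 (12.9%) with all 18 libraries.

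The call was held by 5 genes in each of the 6 fits that left out 1 of the compared libraries, Mup20, Hsd17b6, C8a and Mug2 higher and Zmym1 lower in skip2. Without skip2 replicate 1, limma called 5 genes higher and 2 lower. These were those 5 with Mup14 and Tuba1c.

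Ctnnb1 (chromosome 9, 120929216 to 120960507) was measured first, since it is the gene under study. Its normalized count was 444 and 457 in the skip2 libraries, and 135, 150, 171 and 199 in dN90 replicates 1 to 4. The skip2 values lay above every dN90 value and close to each other. The log2 difference was 1.47 (SE 0.26, limma adjusted p = 0.0089), a ratio of means of 2.76. In the 7 livers without an induced tumour (wild type, skip1 alone and skip2 alone) it ran from 125 to 177, which overlaps the dN90 values, and in skip1 induced samples it ran from 580 to 1266, above the skip2 values. Counts per gene do not tell isoforms, endogenous transcripts and transgenes apart. Whether transcripts of each delivered form were counted as Ctnnb1 is not known here. The ratio is thus of counts given to this gene, which may leave out delivered transcripts. Of the exonic bases of Ctnnb1 67.4% lie within a gene on the other strand, and whether the counting used the strand is not known here. Without skip2 replicate 1 the difference was 1.49 (limma adjusted p = 0.11).

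The other genes of the beta-catenin complex and of the Wnt response did not pass the test. Of 19 members of the list of catenins, destruction complex and nuclear partners, 12 were tested. Ctnnb1 alone was called, with a list median of 0.15 beside 0.05 for all genes tested. Of 6 tested Wnt feedback genes none was called, and their median was 0.22. Axin2, a negative feedback target of the pathway, was at 17.9 and 11.9 in skip2 and at 26.7, 15.3, 12.5 and 7.95 in dN90 tumours. The groups overlapped (log2 difference 0.03, SE 0.56). The cyclin D1 gene Ccnd1 was at 216 and 141 against 130, 63.3, 179 and 234 (0.35, SE 0.36).

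Glul was at 110 and 175 in skip2 tumours and at 565, 408, 157 and 86.4 in dN90 tumours, so the dN90 libraries spread on both sides of the skip2 values. The difference of -0.77 (SE 0.57) did not pass the test (limma adjusted p = 0.70). Slc1a2, a glutamate transporter gene of the same zone that was named after its values were seen, had the same order over the dN90 libraries, with 151, 77.3, 25.6 and 6.14 against 17.6 and 33.0 in skip2. Of 23 tested pericentral genes none was called, and the list median was 0.09. Cyp2e1, the abundant pericentral cytochrome P450 gene, was at 3314 and 4095 against 2915 to 4855 (0.07, SE 0.31).

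Mup20 had the smallest p of all genes tested. It encodes darcin, a major urinary protein that male mice secrete as a pheromone, and lies on chromosome 4, 62050234 to 62054158. Its normalized count was 2688 and 2519 in skip2 and 554, 234, 196 and 285 in dN90 tumours. The lowest skip2 value was more than 4 times the highest dN90 value, and both skip2 values were below the 5009 to 9158 of the livers without an induced tumour and the 5694 to 8112 of the skip1 induced samples. The log2 difference was 3.15 (SE 0.33, limma adjusted p = 2.8e-05), and it lay between 2.96 and 3.46 when any 1 library was left out.

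The sum of the other Mup genes differed between the skip2 libraries. The 17 other members in the table summed to 136 in skip2 replicate 1 and 786 in replicate 2, against 146, 149, 56.9 and 118 in dN90 replicates 1 to 4. Replicate 1 thus lay inside the dN90 range and replicate 2 far above it. Of 16 tested Mup genes, 3 were called higher (beside 0.576% of all genes), Mup20, Mup3 and Mup10, with a list median of 1.07. The median difference from the dN90 mean was -0.27 in skip2 replicate 1 and 2.79 in replicate 2. Mup10 was at 52.9 and 220 against 55.1 in dN90 replicate 1 and 0 in the other 3 dN90 libraries, so its groups overlap. Mup3 was at 71.0 and 236 against 14.8 to 47.9 (log2 difference 1.95, limma adjusted p = 0.041). For Mup3 and Mup10 the limma adjusted p was 0.0843 without skip2 replicate 1. Mup genes are near-identical copies whose reads may be divided among them by the counting, so single-member values are uncertain. In livers without an induced tumour the 18 Mup genes summed to between 41790 and 105946, against 2824 and 3305 in skip2 and 253 to 700 in dN90 tumours.

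Hsd17b6, whose promoter is printed above, was listed at 18.6 and 30.7 in skip2 and at 1.59, 1.03, 0 and 1.00 in dN90 tumours. The dN90 values are those of a few reads or none per library. The log2 difference was 3.79 (SE 0.43, limma adjusted p = 7.3e-05), and the skip2 values lay within the 7.30 to 29.0 of the skip1 induced samples or just above it. C8a was at 90.3 and 120 against 25.1, 20.6, 8.15 and 17.5, with no overlap. Its log2 difference was 2.58 (SE 0.34, limma adjusted p = 0.00029). Mug2 was at 377 and 466 against 98.3, 62.2, 94.1 and 132, and the log2 difference was 2.15 (SE 0.33, limma adjusted p = 0.0025). Skip2 values of Mug2 were inside the 263 to 498 of skip1 induced samples and the 296 to 736 of livers without a tumour, while all 4 dN90 values were below both ranges.

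**Figure D2:**
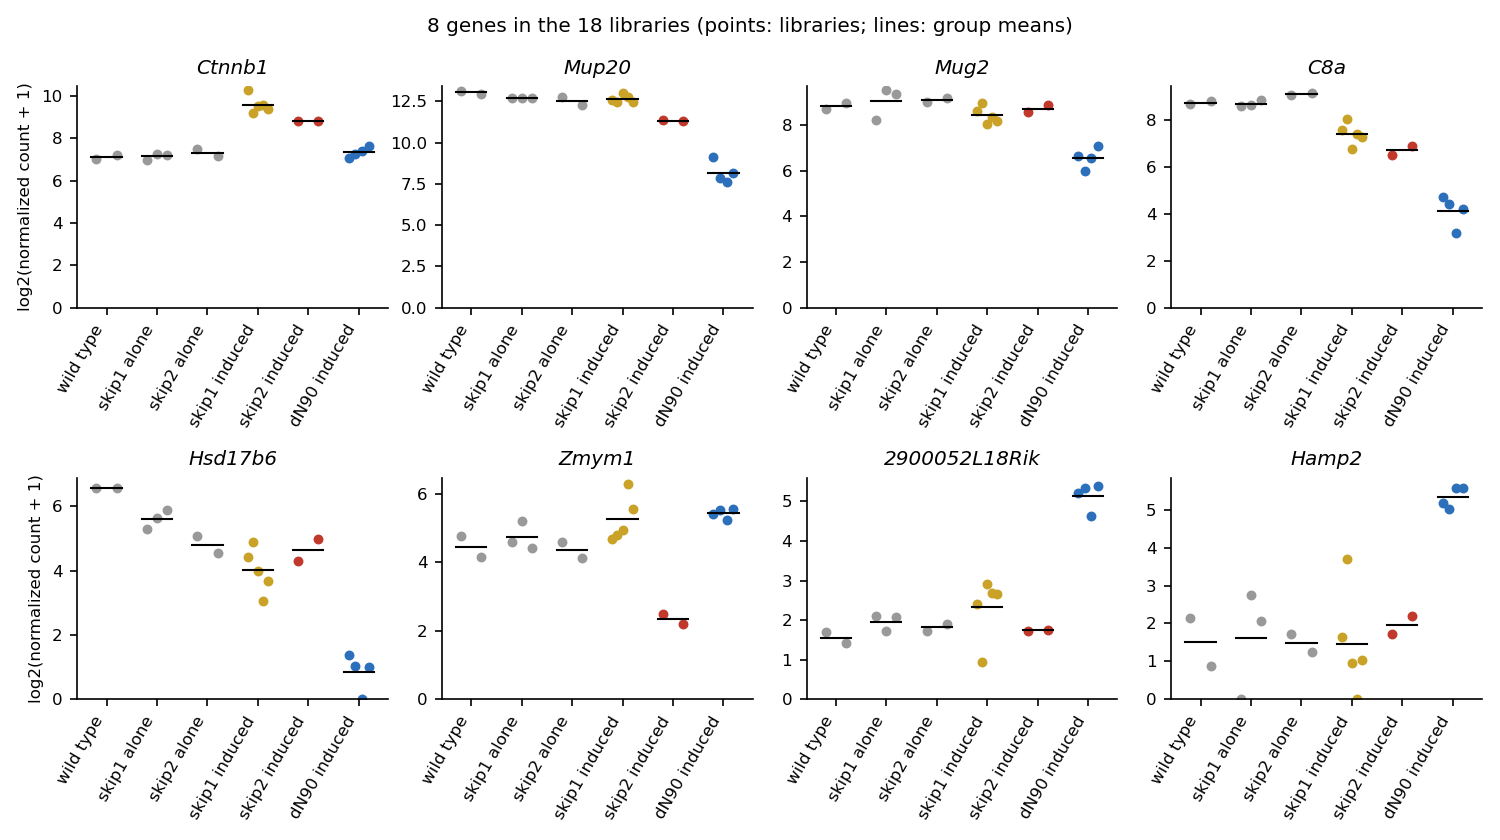
Log2(normalized count + 1) of 8 genes (vertical axes) in the 6 groups (horizontal axes), 1 point per library and a line at the group mean. The dN90 points lie below every other library for Mup20, Mug2, C8a and Hsd17b6 and above every other library for Hamp2 and 2900052L18Rik, and the 2 skip2 points lie below every other library for Zmym1.

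The same arrangement, all 4 dN90 libraries below each of the other 14, was found for 28 of the 38 genes called higher and for 91 of all 6592 genes (1.38%). Skip2 tumours were also below normal levels for most of them. The skip2 mean lay below the lowest of the 7 livers without an induced tumour for 25 of the 38, within their range for 6 and above it for 7. The dN90 mean lay below that lowest value for 32. The median of the 38 genes, as a difference from the dN90 mean, was 1.37 in skip2 replicate 1 and 1.62 in replicate 2. It was 1.35 to 2.34 in the 5 skip1 induced samples and 2.50 to 3.13 in the 7 livers without a tumour. These genes were chosen by this comparison, so the counts and medians describe them and test nothing.

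**Figure D3:**
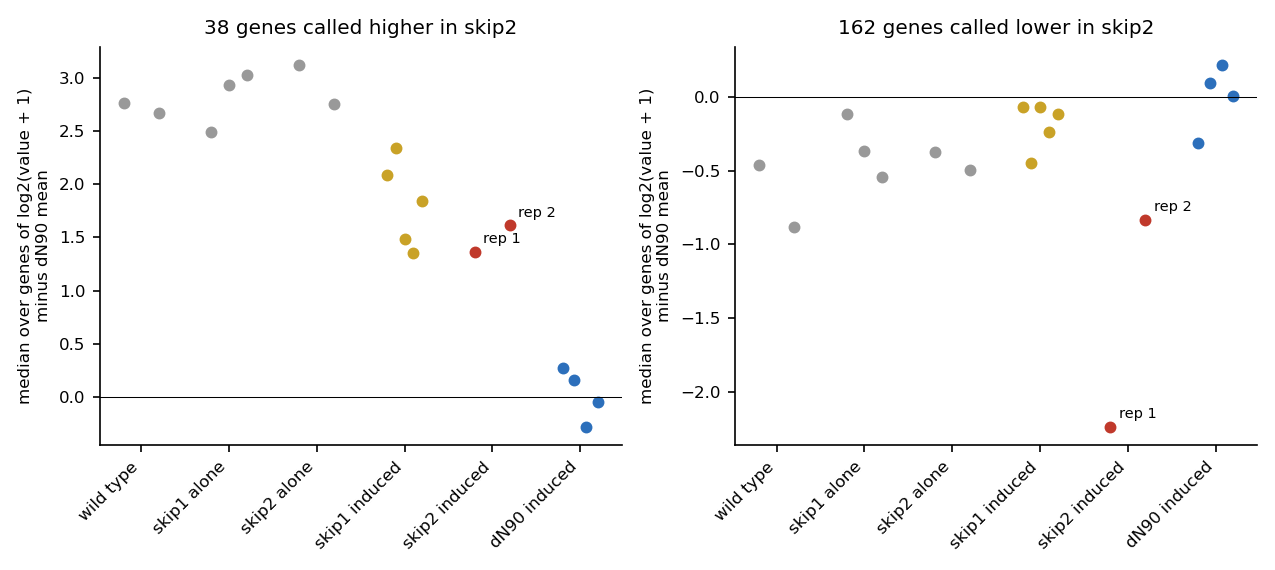
Median over the 38 genes called higher (left) and the 162 called lower (right) of the difference of each library from the dN90 mean, in log2(value + 1) (vertical axes), for the 6 groups (horizontal axes), 1 point per library. The skip2 points are at 1.37 and 1.62 on the left, and farther apart on the right, -2.24 and -0.83.

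Genes of periportal hepatocytes were among the higher ones. Of 25 tested periportal genes, 4 were called higher (beside 0.576% of all genes) and none lower, with a list median of 0.57. Besides Hsd17b6 these were Cyp2f2, a cytochrome P450 gene, Hal, the histidine ammonia-lyase gene, and Sds, the serine dehydratase gene. Cyp2f2 was at 12.4 and 59.6 against 1.57, 8.16, 6.27 and 0, and Hal at 11.5 and 36.9 against 2.36, 8.16, 5.02 and 1.99. In both, skip2 replicate 2 was several-fold above replicate 1, and livers without a tumour were far higher, with 607 to 1028 for Cyp2f2. Sds was at 1.84 and 7.74 against 0.787 and 3 libraries listed at 0. With a pseudocount of 5, or with voom on estimated reads, Cyp2f2, Hal and Sds were no longer called, which leaves Hsd17b6 alone. Sds was also lost under quantile normalization and with thinned reads, and Hal with thinned reads. The limma adjusted p was 0.13 for Cyp2f2, 0.094 for Hal and 0.0843 for Sds without skip2 replicate 1. The highly expressed periportal genes did not pass the test. The urea cycle gene Cps1 was at 1998 and 2560 against 2797, 2324, 2649 and 617, with replicate 4 of dN90 far below the rest, and of 8 tested urea cycle genes none was called (median 0.30).

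Genes for secreted plasma proteins were higher in small number. Of 36 tested plasma protein genes, 3 were called higher and none lower, beside 0.576% of all genes called higher. Their median was 0.35, and 30 had a positive difference, beside 3644 of all 6592. Serpina1e, 1 of several near-identical alpha-1-antitrypsin genes that can share reads, was at 187 and 154 against 9.44, 14.3, 47.7 and 55.6 (log2 difference 2.73, SE 0.62, limma adjusted p = 0.023). Ttr, the transthyretin gene, was at 554 and 953 against 395, 287, 225 and 228 (1.39, SE 0.33, limma adjusted p = 0.025). Serpina1e differed by 2.59 and Ttr by 1.78 without skip2 replicate 1 (limma adjusted p = 0.45 and 0.11). Mug2 was the other gene. Alb, the albumin gene, was at 21228 and 22753 against 11585, 9916, 7945 and 8439. Its groups did not overlap, but the difference of 1.23 (SE 0.46) had a limma adjusted p of 0.19.

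Among complement genes, 2 of 22 tested were called higher, C8a and C6, beside 0.576% of all genes (median 0.27). C6, another component of the membrane attack complex, was at 51.5 and 47.7 against 25.2, 23.5, 23.8 and 11.9 (log2 difference 1.25, SE 0.27, limma adjusted p = 0.021), and without skip2 replicate 1 the difference was 1.19 (limma adjusted p = 0.40). C3, the central and most abundant component, was at 10847 and 12662 against 7884 to 10934, and its groups overlapped (0.27). Among coagulation genes 2 of 22 were called higher, at the same background, Klkb1, the plasma prekallikrein gene (log2 difference 1.63), and Serpind1, the heparin cofactor II gene (1.06). The fibrinogen genes Fga (-0.10), Fgb (-0.09) and Fgg (0.03) did not pass the test. Klkb1 and Serpind1 each had a limma adjusted p of 0.30 without skip2 replicate 1. None of 19 tested acute phase genes was called. Afm (1.54), the afamin gene, and Spp2 (1.36), which encodes a secreted phosphoprotein, were also called higher.

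Several called genes act in drug, steroid and bile metabolism. Cyp3a11, the main drug-metabolizing P450 gene of its subfamily in mouse liver, was at 234 and 372 against 164, 118, 59.0 and 33.8 (log2 difference 1.89, SE 0.49, limma adjusted p = 0.041). With Cyp2f2 and Cyp2c67 (1.40), 3 of 25 tested P450 genes were called higher, beside 0.576% of all genes, and the list median was 0.07. Cyp2c67 and Cyp2f2 lost the call with voom on estimated reads. Cyp3a11 differed by 2.22 without skip2 replicate 1 (limma adjusted p = 0.38). Cyp2a5, a P450 gene expressed pericentrally, went the other way without passing the test, at 167 and 377 against 1196, 727, 956 and 377 (-1.57, limma adjusted p = 0.20). Abcb11, the bile salt export pump gene, was at 165 and 209 against 116, 91.9, 76.6 and 74.6 (1.06, SE 0.25, limma adjusted p = 0.025). It was the single call among 22 bile acid genes, beside 0.576% of all genes called higher. Abcb11 differed by 1.24 without skip2 replicate 1 (limma adjusted p = 0.30). None of 33 tested conjugation genes was called (median 0.38).

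Steroid and aldehyde enzymes on the list of higher genes were Hsd3b2 (log2 difference 1.77), Srd5a1 (1.67), the steroid 5-alpha-reductase gene, Akr1c6 (0.99), and the aldehyde oxidase genes Aox3 (1.40) and Aox1 (1.23). Glud1, the glutamate dehydrogenase gene, was at 722 and 849 against 400, 342, 329 and 380 (1.11, SE 0.21, limma adjusted p = 0.011), and without skip2 replicate 1 the difference was 1.23 (limma adjusted p = 0.11). The skip2 values of Glud1 lay within the 580 to 851 of livers without a tumour, and the dN90 values below it. Bdh1, the ketone body dehydrogenase gene, differed by 1.11. It was the 1 call among 26 fatty acid oxidation genes (median 0.33), beside 0.576% of all genes called higher. Lipc (1.30), the hepatic lipase gene, Ces3a (2.27), a carboxylesterase gene, Enpp2 (2.73), the autotaxin gene, Aqp8 (2.34), a water channel gene, Abca8a (1.41), Abca8b (0.95) and Add3 (1.33) were also called higher. No gene of cholesterol synthesis, fatty acid synthesis, gluconeogenesis, glycolysis or of the hepatocyte transcription factors was called, and Hnf4a, the master regulator of hepatocyte genes, was at 370 and 470 against 347 to 490.

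Of 13 tested genes with male-biased expression in mouse liver, 2 were called higher (beside 0.576% of all genes), Mup20 and C6, and the list median was 0.53. Cyp2d9 was at 201 and 335 against 136 to 231 and Serpina3k at 62.5 and 193 against 7.95 to 83.4, and neither passed the test. Of 3 tested female-biased genes none was called. The sex of the animals is not given in the labels used here.

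Igfbp2, whose product binds insulin-like growth factors, was at 157 and 182 in skip2 and at 47.7, 36.7, 86.4 and 81.7 in dN90 tumours (log2 difference 1.5, SE 0.39, limma adjusted p = 0.042). Every skip2 value exceeded every dN90 value. It was the 1 call among 6 tested oncofetal genes (median 0.84), beside 0.576% of all genes called higher. The call was lost when any library other than dN90 replicate 4 was left out, and the difference without skip2 replicate 1 was 1.60. H19, the imprinted non-coding RNA of fetal liver, was at 196 and 116 against 35.4, 15.3, 148 and 70.5, and its groups overlapped (1.60, SE 0.75, limma adjusted p = 0.37). Gpc3, the glypican-3 gene, was at 192 and 163 against 139, 109, 159 and 240. Afp, the alpha-fetoprotein gene, did not reach the filter, with 0 to 4.14 in the 6 libraries.

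Matrix genes were higher in skip2 tumours in 2 cases. Col3a1, the type III collagen gene, was at 179 and 150 against 48.0, 53, 41.4 and 110 (log2 difference 1.47, SE 0.33, limma adjusted p = 0.022). Sparc, the gene of a matrix-binding glycoprotein, was at 114 and 124 against 48.8, 51.0, 40.1 and 101 (1.06, SE 0.28, limma adjusted p = 0.043). The call of Col3a1 was lost without skip2 replicate 1 (difference 1.35, limma adjusted p = 0.45) or without dN90 replicate 3. That of Sparc was lost with no filter, with thinned reads, and without any library other than dN90 replicate 4 (without skip2 replicate 1, 1.13 and limma adjusted p = 0.49). In both, dN90 replicate 4 was nearest to the skip2 values, and livers without a tumour were lower, at 11.3 to 37.8 for Col3a1. Of 13 tested stellate cell and fibroblast markers Col3a1 alone was called, beside 0.576% of all genes called higher. Of the 13, 7 had an unadjusted limma p under 0.05, all higher in skip2, beside 239 of all 6592 genes. Other lists leaned the same way at that p, with 10 of 36 plasma protein, 7 of 25 periportal and 7 of 22 complement genes higher. No tested member of these lists was lower at that p. The list median was 1.00. Col1a1 was at 53.3 and 55.4 against 18.9, 24.5, 12.5 and 56.6, which overlaps. The 26 markers of this list summed to 829 and 735 in skip2 against 375, 574, 304 and 544 in dN90 replicates 1 to 4, without overlap, and none was at 0 in all 6 libraries. In bulk tissue, more cells of a type and more RNA per cell cannot be told apart, and the part of stromal cells in the matrix genes was not tested.

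Marker sums overlapped between the groups for endothelial cells, macrophages and biliary cells. The 22 endothelial markers summed to 605 and 562 against 390, 645, 427 and 399 in dN90 replicates 1 to 4. None of 17 tested was called (median 0.42), but 4 had an unadjusted limma p under 0.05, all higher in skip2. The 22 macrophage markers summed to 1057 and 944 against 764 to 1102, with none of 17 called (median 0.18). Of these 17, 4 had an unadjusted limma p under 0.05, all higher in skip2. The 13 biliary markers summed to 675 and 596 against 268, 182, 438 and 832, a range that contains the skip2 values, and Krt19 was at or below 3.24 in all 6 libraries. The 4 mesothelial and fat cell markers in the table summed to 52.4 and 67.3 against 33.0, 18.4, 13.8 and 23.8, without overlap. Most of that sum was Car3, a carbonic anhydrase gene, at 48.7 and 65.5 against 29.1, 17.3, 10 and 21.9 (log2 difference 1.57, limma adjusted p = 0.43), which ran from 832 to 1777 in livers without an induced tumour. The part of such cells in the matrix genes was not tested. No T and NK cell, B cell or neutrophil marker reached the filter.

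**Figure D4:**
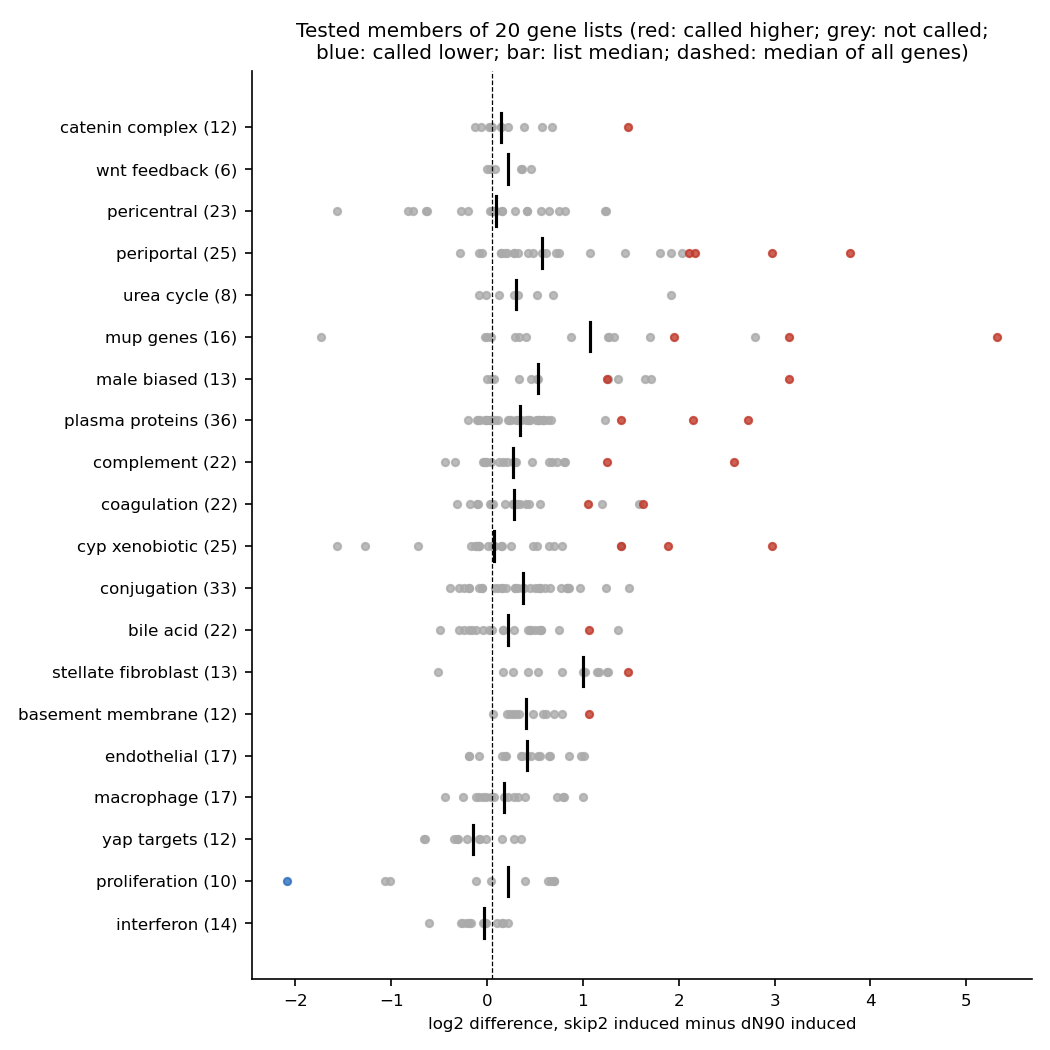
Log2 difference, skip2 minus dN90 (horizontal axis), of the tested members of 20 gene lists (vertical axis, number tested in brackets). Points are genes, red where called higher, blue where called lower and grey where not called, bars are list medians and the dashed line is the median of all genes, 0.05. The largest medians are those of the Mup genes, 1.07, and of the stellate cell and fibroblast markers, 1.00.

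YAP targets and growth genes gave few differences. None of 12 tested YAP and TEAD targets (median -0.15) and none of 8 Hippo pathway genes was called. Yap1 was at 32.9 and 40.0 against 29.2, 25.6, 51.7 and 25.6. Of 10 tested proliferation genes 1 was called lower, beside 2.46% of all genes. This was Ccne2, a cyclin E gene with 62.9% of its exonic bases within a gene on the other strand. It was at 2.76 and 10.1 against 18.1, 34.7, 28.8 and 26.8 (log2 difference -2.08, SE 0.45, limma adjusted p = 0.021). Without skip2 replicate 1 the difference was -1.30 (limma adjusted p = 0.73). Mki67, a marker of cycling cells, was at 53.3 and 33.4 against 22.8, 24.5, 17.6 and 52.7 and did not pass the test (0.63). No gene of the NRF2, endoplasmic reticulum stress, heat shock, interferon, antigen presentation, ribosomal or respiratory chain lists was called.

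A single gene stayed lower in skip2 tumours whichever library was left out. Zmym1, a zinc finger gene on chromosome 4 that was named after its values were seen, was at 4.60 and 3.57 in skip2 and at 41.7, 44.9, 36.4 and 45.7 in dN90 tumours. All 12 other libraries lay between 16.5 and 75.8, so the 2 skip2 libraries were the lowest of 18. The log2 difference was -3.09 (SE 0.36, limma adjusted p = 7.35e-05). Both skip2 libraries lay below all other 16 for 108 of 6592 genes (1.64%), of which 54 were called lower. They lay above all others for 98 (1.49%), of which 5 were called higher. In the livers with the skip2 isoform alone Zmym1 was at 16.5 and 23.1. Of its exonic bases 55.4% lie within a gene on the other strand. The libraries were strand-specific per the labels' protocols, and whether the counting used the strand is not given in the sources used here.

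In 8 genes called lower in skip2, all 4 dN90 libraries lay above the other 14, and 2 of them are described. 2900052L18Rik, a non-coding transcript that was also named after its values were seen, was at 2.30 and 2.38 against 36.2, 39.8, 23.8 and 40.7, and at most 6.50 in the other 12 libraries (log2 difference -3.41, SE 0.55, limma adjusted p = 0.0043). Hamp2, a paralog of the hepcidin gene, was at 2.30 and 3.57 against 35.4, 31.6, 46.4 and 46.7, and at most 12 elsewhere (-3.38, SE 0.86, limma adjusted p = 0.039). Hamp, the gene for the iron-regulating hormone hepcidin itself, was at 87.3 and 99.5 against 126, 87.7, 163 and 121 and did not pass the test (-0.38). Over all genes tested this arrangement was found for 43 (0.652%). Without skip2 replicate 1 the limma adjusted p was 0.0843 for 2900052L18Rik and 0.56 for Hamp2, and the call of Hamp2 was also lost when any other of the 6 libraries was left out.

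Most of the 162 genes called lower differed more in skip2 replicate 1 than in replicate 2. Their median difference from the dN90 mean was -2.24 in replicate 1 and -0.83 in replicate 2. Replicate 1 lay below the lowest dN90 value for all 162 and replicate 2 for 154, beside 1454 and 1221 of all 6592 genes. The 162 were chosen by this comparison, so these counts describe them and test nothing. Beside 594 of all 6592 genes, ties included, replicate 1 was the lowest of all 18 libraries for 140 of the 162. With that library left out, 2 of these genes were still called, and with replicate 2 left out limma called 297 genes lower, 141 of them among the 162. Map3k12, a kinase gene, shows the pattern, with 144 and 710 in skip2 against 917, 1003, 1163 and 1099. Rnf146, a ubiquitin ligase gene that acts on axin, was at 196 and 683 against 871, 1042, 1146 and 752. Without replicate 1 the differences were -0.55 for Map3k12 and -0.46 for Rnf146 (limma adjusted p = 0.87 and 0.95). Both were named after their values were seen.

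Antisense and overlapping transcripts were frequent among the genes called lower. Of 159 with annotation, 17 (10.7%) were of antisense biotype, beside 1.58% of all tested genes, and 35.2% had at least 50% of their exonic bases within a gene on the opposite strand, beside 10.2%. Of the 103 tested antisense genes 99 had a negative difference, 17 were called lower and none higher. Their median difference from the dN90 mean was -1.24 in skip2 replicate 1 and -0.55 in replicate 2. Etohd2, an antisense gene, was at 65.7 and 269 against 262, 404, 406 and 410, and Phtf1os at 23.9 and 110 against 127, 199, 176 and 222. Their differences without skip2 replicate 1 were -0.44 and -0.69 (limma adjusted p = 0.95 and 0.82). The median log2 difference of the 162 genes was -1.525 in the main fit. It was -0.67 with log2 depth as a covariate and -1.519 with thinned reads. Depth and group cannot be told apart here, and the part of RNA composition in these differences was not tested.

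Among genes of RNA processing, Srpk2, a kinase of splicing factors, was at 26.7 and 60.9 against 96.9, 184, 192 and 137 (log2 difference -1.84, SE 0.33, limma adjusted p = 0.0097). Psip1, a chromatin-binding coactivator gene, was at 15.8 and 37.9 against 60.8, 151, 117 and 71.5 (-1.89, SE 0.38). Of its exonic bases 77.9% lie within a gene on the other strand. Srpk2 differed by -1.26 and Psip1 by -1.28 without skip2 replicate 1 (limma adjusted p = 0.41 and 0.56). They were the 2 calls among 45 tested splicing genes, beside 2.46% of all genes called lower, and the list median was 0.03. Snhg14, a long non-coding host transcript, was at 12 and 62.5 against 83.4, 101, 117 and 116, and at a difference of -0.72 without replicate 1 (limma adjusted p = 0.82). Replicate 1 was below replicate 2 for 153 of the 162 genes called lower, beside 3763 of all 6592 genes. Tuba1c, an alpha-tubulin gene, had the other order, with 33.1 in replicate 1 and 7.74 in replicate 2 against 42.9 to 63.7 in dN90 tumours (-1.59).

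**Figure D5:**
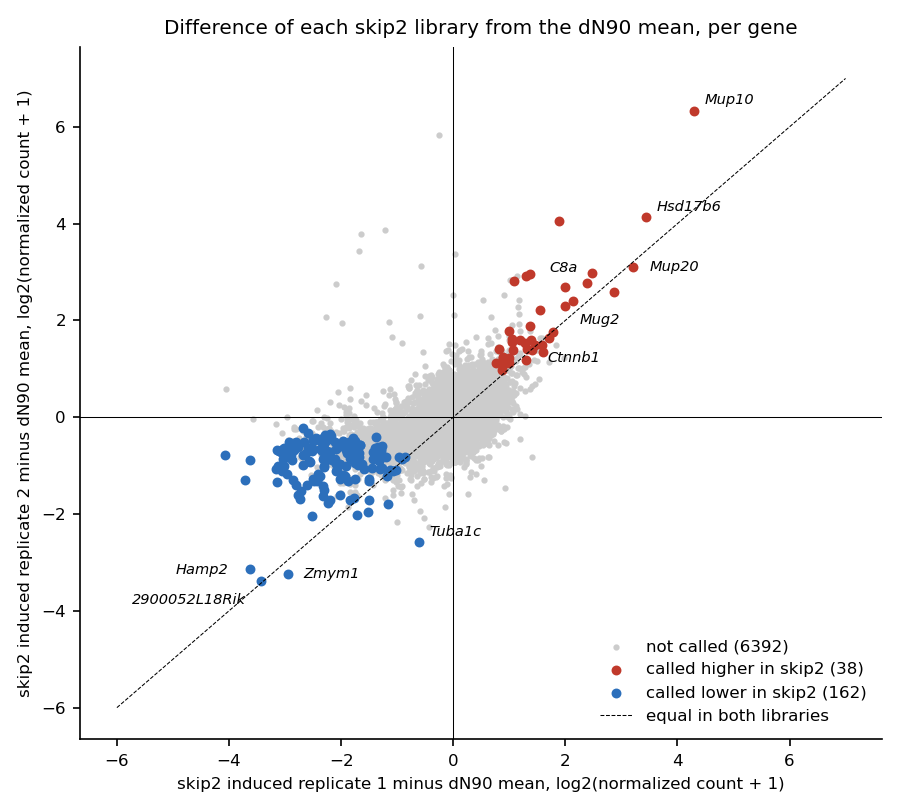
Difference of skip2 replicate 1 (horizontal axis) and of skip2 replicate 2 (vertical axis) from the dN90 mean in log2(value + 1), 1 point per gene, red for the 38 genes called higher, blue for the 162 called lower and grey for the rest. Of the blue points 153 lie left of the dashed line of equal differences, with lower values in replicate 1, as do 30 of the red points. Of all 6592 points 3763 lie there.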

How the data were processed

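Of 34 mouse samples, the 18 with a column in the deposited table of normalized counts were used. Its values, a signal that is not whole reads and is named normalized count in the text, cover 14086 genes and were scaled between libraries by the authors in a way not given in the sources used here. The submitters' processing notes list mm10, FastQC, STAR, RSEM and DESeq2, with no versions. The second deposited table, z-scores from the values, was left out. In each library 59.3% to 60.5% of values were whole multiples, within 0.001, of 1 step, and the column sum over that step gave estimated reads.

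Groups follow the source label. The 6592 genes averaging 10 or more across 18 libraries were tested as log2(value + 1) in limma 3.58.1 (R 4.3.3). The model gave each of 6 groups its own mean and used a trended prior, and two-sided p-values were adjusted by Benjamini-Hochberg over all genes tested. A call is an adjusted p below 0.05. Differences are skip2 minus dN90 and understate the change of low genes. In simulated data for this comparison, over 6592 genes, 30% of changes of 1 log2 unit were called, as were 88% of changes of 2, while 4.84% of calls were false. The simulated noise was normal, independent between libraries and of equal spread in all groups. It held no library that stood apart as skip2 replicate 1 does, so these shares may not hold for the calls here.

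The members and gene lists were chosen with earlier results of these data known. The rule for names took the called, non-overlapping genes with the largest differences, up to 12 per direction, where the higher group averaged at least 100. It added every called list member, the 3 most abundant members of each list, and 13 genes including Ctnnb1 and Glul. The text names part of these, and other called genes were named after their values were seen. GENCODE gave 1 gene for 98.1% of symbols. Alternatives were other pseudocounts, filters and scalings, array weights, voom, a depth covariate, only 2 groups, and leaving out each library. Thinning reads was added after seeing the data. The result for 1 called gene is not reported here.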

Additional observations from a re-analysis of the deposited data

Results flagged for a closer look

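In 206 genes examined over the 4 dN90 induced libraries, 23 had 1 library far from the other 3, judged by its gap to the nearest library as a share of the whole range. Chance sets apart about 1 library in 20 such groups if values spread normally, which does not hold for genes of a few reads. Of the values below, those of Sds and Mup14 are 1 read each, and those of Ngp and Enpp2 a few reads. The 2 skip2 libraries are too few for this comparison.

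In dN90 replicate 1 the normalized counts of the aldehyde oxidase gene Aox3 (84.2), the transferrin gene Trf (10449), Mup10 (55.1) and Sds (0.787) were above the other 3 libraries, and that of the antisense gene Etohd2 (262) was below them. In replicate 2 the stromal genes Bgn (113) and Dcn (43.2), the sinusoidal endothelial gene Stab2 (99.98), the nuclear RNA Malat1 (1115), Fbp1 (237), Enpp2 (3.08), Mup14 (1.02) and the neutrophil gene Ngp (3.06) were above the others, and Gstp1 (317) and the YAP target Ccn2 (10.2) were below. In replicate 3 Yap1 (51.7), the globin gene Hbb-bs (92.8) and Kif3c (209) were above and Abca8a (8.78) was below. In replicate 4 Col3a1 (110) was above, and Arg1 (56.6), an enzyme of the urea cycle, C6 (11.9) and Insig1 (115) were below. The cause of these single values was not tested.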

How the results depend on the processing

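All 38 genes called higher kept their direction under every alternative that tested them, as did all 162 called lower except under the depth covariate, where 158 did. Against 200 called genes, limma called 168 with no filter and 184 to 275 with pseudocounts of 0.5 and 5, upper-quartile scaling, quantile normalization, array weights or voom on estimated reads. With a mean of at least 50, which left fewer genes tested, 35 were higher and 107 lower. With only the 2 compared groups in the fit, 7 were called, 4 higher and 3 lower. With log2 depth as a covariate limma called 0 genes, 0 higher and 0 lower, against 239 at an unadjusted p under 0.05. The skip2 libraries are the deepest 2, so depth and group cannot be told apart in that fit. Its log2 differences were 2.45 for Mup20 and -3.05 for Zmym1 (limma adjusted p = 0.39 for each, and at most 0.019 under each other alternative that tested them).

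Leaving out 1 library gave 7 to 308 called genes, 5 to 39 higher and 2 to 297 lower. There were 5 higher and 2 lower without skip2 replicate 1, 11 and 297 without skip2 replicate 2, 30 and 85 without dN90 replicate 2, 11 and 25 without dN90 replicate 3, and 21 and 91 without dN90 replicate 4. Where 1 skip2 library is left, it is assumed to vary like the other groups. With reads thinned to 361705 per library, chosen after seeing the data, limma called 36 higher and 153 lower, of which 30 and 118 were shared. No paired analysis was possible because the labels give no replicate numbers and the columns carry none. Depth limits low genes such as Hsd17b6 and Sds, which are a few reads or none in dN90 libraries.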

Other observations

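Some further genes did not overlap between the groups but did not pass the test. Fmo2, a flavin monooxygenase gene, was at 53.5 and 37.7 in skip2 and at 118, 105, 133 and 65.3 in dN90 tumours, and at most 23.7 in the other 12 libraries (log2 difference -1.16, limma adjusted p = 0.16). Cp, the ceruloplasmin gene, was at 1392 and 1333 against 827, 632, 740 and 885, and at most 865 elsewhere (0.83, limma adjusted p = 0.060). Slc7a11, the cystine transporter gene, was at 73.6 and 75.1 against 104, 82.6, 157 and 237 (-0.84, limma adjusted p = 0.25). Kcnq1ot1, an imprinted antisense RNA, was at 72.6 and 62.5 against 106, 264, 139 and 134 (-1.16, limma adjusted p = 0.13).

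In other genes the skip2 libraries differed from each other. Malat1 was at 959 and 346, and Pck1, a gluconeogenic gene, at 222 and 955, and both overlapped the dN90 values.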
